A study of Mus musculus with 3 samples.

Results

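Cholesterol and lipid synthesis genes were followed as a set of 31 genes, taken by name from textbook knowledge of the pathway, among 20637 named genes on the array. A probe was counted as a member when the accession it carries is a transcript of a listed gene, which gave 42 probes, and 21 genes had 1 probe. By role the set held 7 genes of the mevalonate arm, 11 of the sterol arm, 5 regulators of the SREBP system, the sterol carrier gene Stard4 and 7 genes of fatty acid synthesis. The labels call the cells mouse embryonic stem cells (mESCs), a name that the pluripotency markers given below bear out only in part. The cells were of 3 genotypes, LIFR KO, gp130 KO and wildtype, all grown under standard conditions and each measured on 1 single-colour array. The cytokine LIF signals through a receptor made of LIFR and of gp130, the product of Il6st, which transduces the signal. The labels do not say how the knockouts were made, or whether a line is 1 clone.

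Cells make cholesterol from acetyl-CoA through mevalonate, isoprenoids, squalene and lanosterol. The pathway is controlled by the SREBP transcription factors, which the escort protein SCAP carries from the endoplasmic reticulum to the Golgi when sterols are scarce, where proteases release the active fragment. INSIG proteins hold SCAP back when sterols are plentiful. Genes of the mevalonate and sterol arms are classic targets of SREBP2, genes of fatty acid synthesis are classic targets of SREBP1, and Insig1 is itself a target, so its product feeds back on the system.

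There were no replicates, so no test was made, and every ratio is between 2 arrays. All values are the scanner's processed signal, scaled so that the 75th percentile of each array equals that of the wildtype array, and a log2 ratio is knockout over wildtype unless said otherwise. The scanner's own error of a log2 ratio was 0.20 to 0.21 for the members, and repeated spots of a probe gave a 95% half-width of 0.14 to 0.15, which covers spots and not cultures. Both knockouts were set against the same wildtype array, so a deviation of that array enters both ratios. In such whole-culture RNA, more cells of a type and more RNA per cell cannot be told apart. Each knockout still gave signal for its own target. Lifr had 26.5 in LIFR KO against 34.9 in wildtype with its brightest probe, which was dim. Its other probes stayed near background on all 3 arrays, at 3.79 and 3.18 in LIFR KO and 2.71 and 2.27 in wildtype. The reading for Lifr thus rests on that dim probe. Il6st had 305 in gp130 KO against 329 in wildtype. Whether the Lifr and Il6st probes lie in a deleted part is not given in the sources used here. Of 6 markers of pluripotent cells, Sox2 and Zfp42 stayed near background on all 3 arrays. The other 4 had a median log2 ratio of -0.62 in LIFR KO, with all 4 lower, and of 0.038 in gp130 KO. Nanog had 192 in LIFR KO, 335 in gp130 KO and 316 in wildtype. Lin28a had 474 in LIFR KO, 837 in gp130 KO and 727 in wildtype. Pou5f1 was dim, with 20.1 in LIFR KO, 20.7 in gp130 KO and 31.2 in wildtype. So was Esrrb, with 37.8 in LIFR KO, 49.9 in gp130 KO and 50.3 in wildtype. The scanner error of their ratios was larger than that of the members. The 4 epithelial markers were well above background on all 3 arrays. In wildtype they had 39533 (Krt18), 9174 (Cdh1), 6514 (Krt8) and 1775 (Epcam). Their log2 ratios were 0.12 to 0.22 in LIFR KO and 0.10 to 0.23 in gp130 KO. The 5 fibroblast markers measured had medians of 0.00 in LIFR KO, where 2 are bounds, and 0.31 in gp130 KO. All 5 were higher in gp130 KO, though Col1a2, Col3a1 and Thy1 were dim and Thy1 lay under its scanner error there. The part of these marker lists in the results was not tested, and neither was the identity of the cells beyond their label.

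Most members were modestly higher in both knockouts. In LIFR KO 27 of 31 lay above wildtype, with a median log2 ratio of 0.32, and in gp130 KO 29 of 31, with a median of 0.26. Over all genes compared, 42.9% of 14553 lay above wildtype in LIFR KO and 54.8% of 14905 in gp130 KO, with medians of -0.032 and 0.027. By more than the scanner error, 23 members lay above wildtype and 1 below in LIFR KO, and 22 above and 1 below in gp130 KO. That count was not made over all genes. As a small difference, a signal at least 25% above that of the other array was counted, as higher or lower. By it, 15 of 31 members were higher in LIFR KO, against 13.5% of all genes, and 11 of 31 in gp130 KO, against 11.9% of all genes, with Lss and Fasn just under the limit in LIFR KO. Lower was 1 member in LIFR KO, Srebf2, against 20.2% of all genes, and none in gp130 KO, against 10.4%. The ratios were small, since only 4 members reached 1.5-fold in LIFR KO and 2 in gp130 KO, where 6.42% and 4.59% of all genes did, and none was 1.5-fold lower, against 7.52% of all genes in LIFR KO and 3.11% in gp130 KO. Insig1 alone reached 2-fold, in LIFR KO, where 2.87% of all genes did, and no member did so in gp130 KO, against 1.61% of all genes. None was 2-fold lower, against 1.62% of all genes in LIFR KO and 0.785% in gp130 KO.

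**Figure D1:**
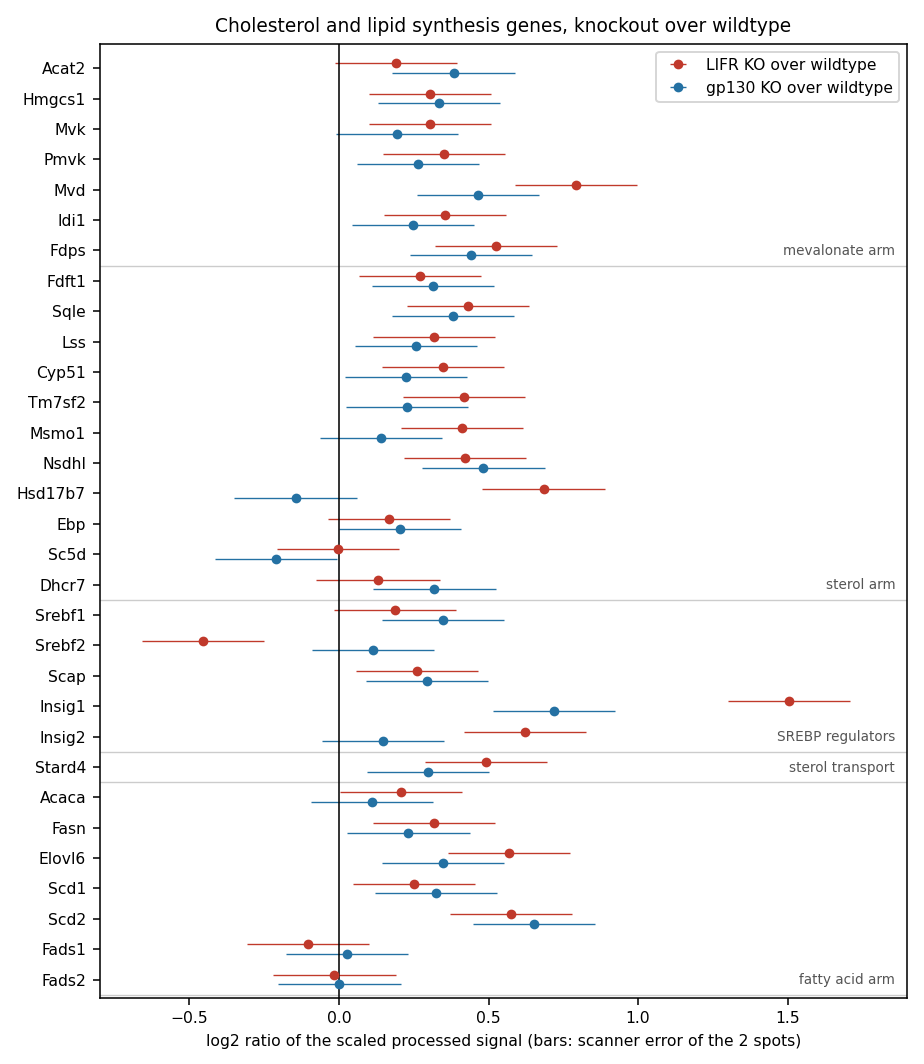
Log2 ratio over wildtype (x axis) of the 31 genes, ordered by role down the page, for LIFR KO (red) and gp130 KO (blue). Points are single ratios between 2 arrays and bars are the scanner's error of the ratio, and 27 red and 29 blue points lie right of 0.

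The same was seen among bright genes. Of the 31 genes, 21 had a mean level above the 75th percentile, and their median log2 ratio was 0.35 in LIFR KO and 0.29 in gp130 KO. All 6449 genes that bright had medians of 0.027 in LIFR KO and 0.050 in gp130 KO. In this bright part 57.1% of the members and 12.3% of all genes were at least 25% higher in LIFR KO, and 38.1% and 6.53% in gp130 KO. This group was set after the data had been seen.

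**Figure D2:**
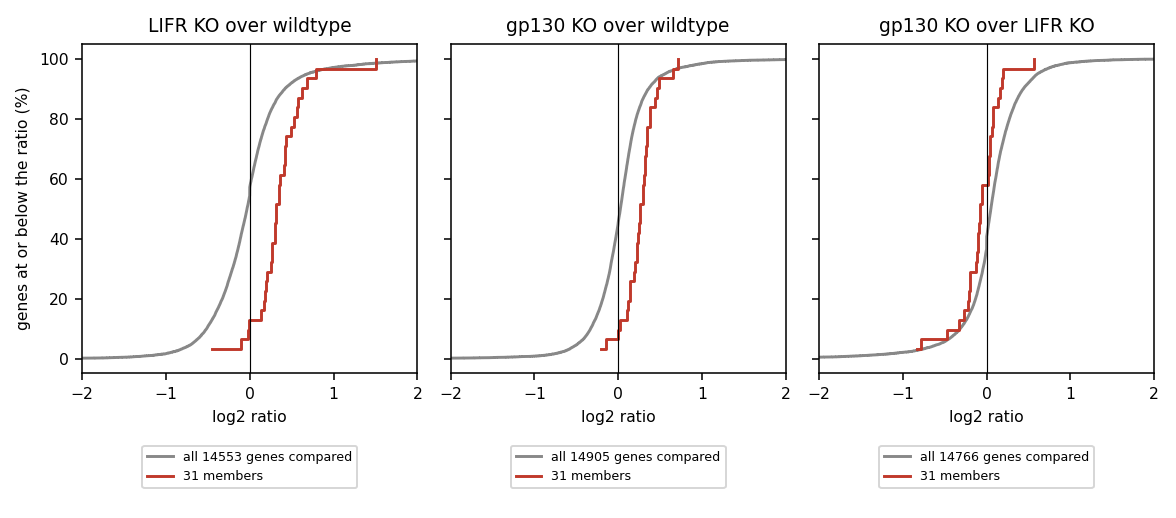
Cumulative share of genes (y axis, percent) at or below a log2 ratio (x axis) for the 31 members (red) and all genes compared (grey) in the 3 comparisons. The red curve lies to the right of the grey one for both knockouts over wildtype, with medians of 0.32 and 0.26, and slightly to the left for gp130 KO over LIFR KO, with a median of -0.082.

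The regulators held the highest member in both knockouts and, in LIFR KO, also the lowest. Insig1, whose protein retains SCAP in the endoplasmic reticulum, had a signal of 1034 in LIFR KO, 599 in gp130 KO and 364 in wildtype. It was 2.84-fold higher in LIFR KO and 1.65-fold higher in gp130 KO, log2 ratios of 1.51 and 0.72, each several times the scanner error. It ranked 212th from the top of all genes compared in LIFR KO and 461st in gp130 KO, the highest rank of any member in both. Insig2, which encodes the related retention protein, had 2201 in LIFR KO, 1583 in gp130 KO and 1431 in wildtype. It was thus 1.54-fold higher in LIFR KO, while its log2 ratio of 0.15 in gp130 KO was under the scanner error. A second Insig2 probe put the arrays in the same order, with 1048 in LIFR KO, 696 in gp130 KO and 669 in wildtype.

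The SREBP genes themselves did not share the pattern of Insig1. Srebf1, which encodes SREBP1, had 393 in LIFR KO, 439.8 in gp130 KO and 346 in wildtype, log2 ratios of 0.19 and 0.35. Srebf2, which encodes SREBP2, had 499 in LIFR KO, 742 in gp130 KO and 685 in wildtype with its brighter probe. That probe was 1.37-fold lower in LIFR KO, a log2 ratio of -0.46, the lowest of any member there, and had 0.12 in gp130 KO. The other Srebf2 probe had 293 in LIFR KO, 232 in gp130 KO and 330.3 in wildtype, so that both probes were lower in LIFR KO but went opposite ways in gp130 KO. The log2 ratio of this other probe in LIFR KO, -0.17, was however smaller than the brighter probe's scanner error of 0.20. The brighter probe's 0.12 in gp130 KO was also under its scanner error. Scap, the escort gene, had 5921 in LIFR KO and 6058 in gp130 KO, both above the 4938 of wildtype, with log2 ratios of 0.26 and 0.29.

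**Figure D3:**
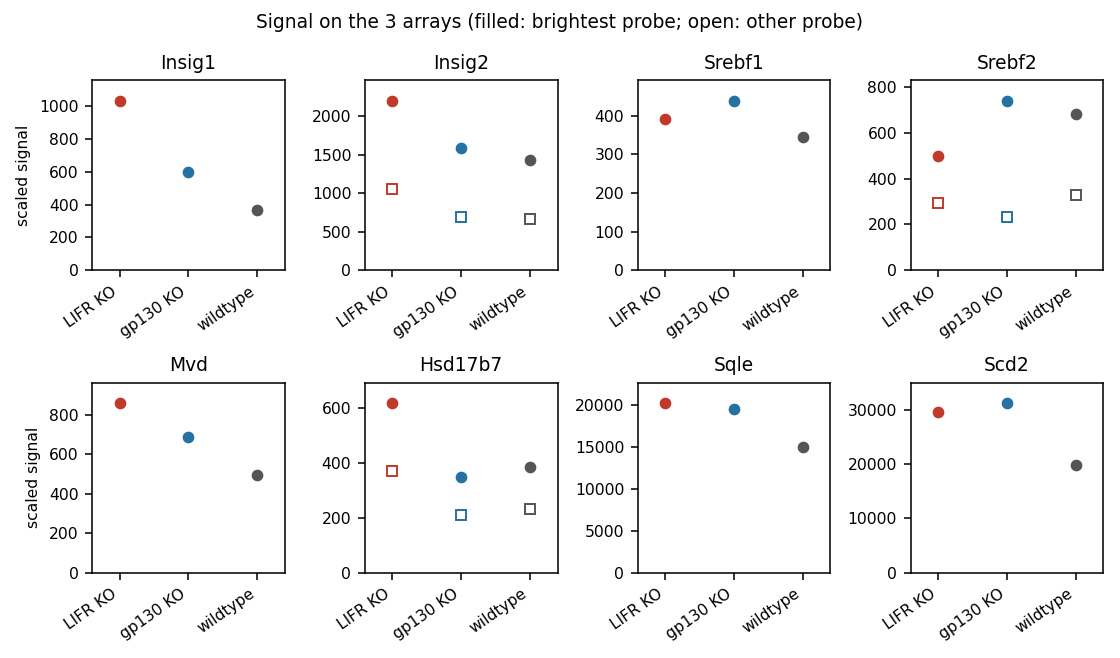
Scaled processed signal (y axis, from 0, arbitrary units) of 8 members on the LIFR KO, gp130 KO and wildtype arrays. Filled circles are the brightest probe of a gene and open squares its other probe, and Insig1 stands at 1034, 599 and 364 while the 2 Srebf2 probes differ in which array is highest.

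Since these genes share a regulator, the bases before their annotated starts were searched for the motifs such promoters are known for. RefSeq windows of 250 bases before to 50 bases after the start (GRCm38.p6) were at hand for 24 of the 31 genes. The windows of Insig1, the member with the largest ratio, and of Hmgcs1, the one member with a match to the sterol response element core, are shown for the 250 bases before the start. For Mvd and Hsd17b7, the members next to Insig1 in LIFR KO, and for Idi1 and Insig2, the 100 bases before the start are shown, since paired NF-Y boxes lie there. Insig2 has 3 windows, of which the first is shown, and the others held GC boxes and no NF-Y box. Which start these cells use was not tested. Mvk, Fasn, Msmo1 and a later Dhcr7 window, not shown, also hold such pairs. The share of all genes with such a pair was not counted. Capitals mark matches to the core TCACNCCAC, the E-box CACGTG and the NF-Y box CCAAT on either strand, where CCAAT on the other strand reads ATTGG.
Insig1, chr5:28071162-28071411, plus strand: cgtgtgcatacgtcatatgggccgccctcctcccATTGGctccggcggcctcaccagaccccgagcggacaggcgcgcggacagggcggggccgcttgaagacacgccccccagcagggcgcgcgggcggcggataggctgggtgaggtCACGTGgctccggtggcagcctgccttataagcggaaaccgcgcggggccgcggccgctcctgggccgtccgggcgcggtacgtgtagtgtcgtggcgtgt
Hmgcs1, chr13:119690101-119690350, plus strand: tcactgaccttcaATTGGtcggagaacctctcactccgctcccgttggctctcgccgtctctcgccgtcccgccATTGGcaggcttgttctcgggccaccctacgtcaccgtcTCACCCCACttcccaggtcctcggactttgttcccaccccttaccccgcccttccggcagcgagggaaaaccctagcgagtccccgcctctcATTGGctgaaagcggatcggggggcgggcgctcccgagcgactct
Mvd, chr8:122443423-122443522, minus strand: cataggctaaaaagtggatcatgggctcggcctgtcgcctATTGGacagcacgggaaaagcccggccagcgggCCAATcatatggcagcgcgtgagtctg
Hsd17b7, chr1:169969206-169969305, minus strand: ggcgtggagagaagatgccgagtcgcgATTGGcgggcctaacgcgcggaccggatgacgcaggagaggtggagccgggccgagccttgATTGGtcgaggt
Idi1, chr13:8885506-8885605, plus strand: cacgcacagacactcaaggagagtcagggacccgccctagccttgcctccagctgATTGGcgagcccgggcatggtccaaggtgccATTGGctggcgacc
Insig2, chr1:121332590-121332689, minus strand: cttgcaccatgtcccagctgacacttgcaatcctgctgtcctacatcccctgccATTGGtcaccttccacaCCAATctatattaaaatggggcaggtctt

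The NF-Y box, bound by a factor that is known to act beside SREBP, was frequent in these windows. It was present for 19 of 24 member genes (79.2%), against 42.8% of the 11984 genes compared that have a window, and in 62.5% of the 32 member windows, against 37.4% of all 32851 windows. The GC box GGGCGG, bound by factors of the Sp family, was present for 20 of 24 (83.3%), against 60.9% of the genes compared. The E-box, to which SREBP proteins can also bind, was present for 5 of 24 (20.8%), against 10.6% of the genes compared. The 5 were Dhcr7, Hsd17b7, Insig1, Sc5d and Scap. The 9-letter sterol response element core was met once, in Hmgcs1 at -137 to -129 from the start, and in 1.39% of the genes compared. In the member windows no match of one motif overlapped a match of another. Both strands were searched, and a match describes the letters of a window and not a bound site.

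**Figure D4:**
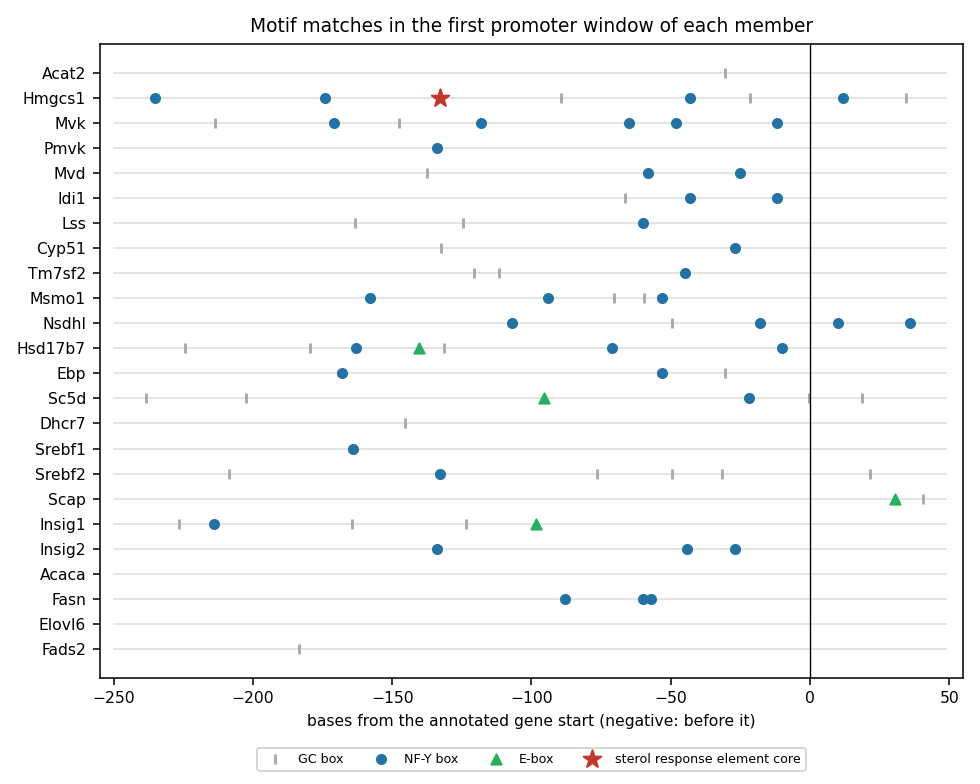
Position of motif matches (x axis, bases from the annotated gene start) in the first promoter window of each of the 24 members with a window (rows), with blue circles for the NF-Y box, grey bars for the GC box, green triangles for the E-box and a red star for the sterol response element core. The star lies in Hmgcs1. Mvd, Idi1, Hsd17b7, Insig2, Mvk, Fasn and Msmo1 each have at least 2 NF-Y boxes within 100 bases before the start. Hsd17b7 has a further one at -165 to -161. The share of all genes with such a pair was not counted.

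All 7 genes of the mevalonate arm lay above wildtype in both knockouts, though Acat2 in LIFR KO and Mvk in gp130 KO did so by less than the scanner error. Their log2 ratios ran from 0.19 to 0.79 in LIFR KO, with a median of 0.35, and from 0.19 to 0.47 in gp130 KO, with a median of 0.33. Mvd, the decarboxylase that makes isopentenyl diphosphate, stood highest, with 861 in LIFR KO, 686 in gp130 KO and 497 in wildtype, or 1.73-fold and 1.38-fold over wildtype. Fdps, which makes farnesyl diphosphate, had 22676 in LIFR KO and 21428 in gp130 KO, both above the 15762 of wildtype. Hmgcs1, the synthase that makes HMG-CoA, had 10829 in LIFR KO, 11042 in gp130 KO and 8764 in wildtype. Its signal was thus about as far above wildtype in one knockout as in the other, with log2 ratios of 0.31 and 0.33. Hmgcs1 and the brighter Stard4 probe were the 2 member probes that lay in raised local background on the LIFR KO array, where it was 48 and 45 against a median of 23.5, small beside their signals.

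The other mevalonate genes lay closer together. Mvk and Pmvk, the kinases that phosphorylate mevalonate, had log2 ratios of 0.30 and 0.35 in LIFR KO and of 0.19 and 0.26 in gp130 KO. Idi1, the isopentenyl diphosphate isomerase, had 13639 in LIFR KO, 12662 in gp130 KO and 10657 in wildtype, log2 ratios of 0.36 and 0.25. Acat2, which condenses acetyl-CoA at the head of the pathway, was higher in gp130 KO than in LIFR KO, with 714 in LIFR KO, 817 in gp130 KO and 626 in wildtype.

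Of the 11 genes of the sterol arm, 10 lay above wildtype in LIFR KO and 9 in gp130 KO. Their median log2 ratio was 0.35 in LIFR KO and 0.23 in gp130 KO. Sqle, the squalene epoxidase, had 20298 in LIFR KO, 19582 in gp130 KO and 15037 in wildtype, or 1.35-fold and 1.30-fold over wildtype. Nsdhl, a sterol dehydrogenase of C4 demethylation, had 638 in LIFR KO, 667 in gp130 KO and 477 in wildtype, and its other probe gave 301 in LIFR KO, 314 in gp130 KO and 224 in wildtype. Msmo1, the oxidase of that demethylation, had 10971 in LIFR KO, 9106 in gp130 KO and 8254 in wildtype, so that it was 1.33-fold higher in LIFR KO while its log2 ratio of 0.14 in gp130 KO was under the scanner error. Fdft1, the squalene synthase, Lss, the lanosterol synthase, Cyp51, the lanosterol demethylase, and Tm7sf2, a sterol reductase, had log2 ratios of 0.27 to 0.42 in LIFR KO and of 0.22 to 0.31 in gp130 KO.

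Hsd17b7 was the sterol gene that separated the knockouts. It encodes the ketosteroid reductase of C4 demethylation, and its signal was 619 in LIFR KO, 348 in gp130 KO and 385 in wildtype. It was 1.61-fold higher in LIFR KO, while its log2 ratio in gp130 KO, -0.15, was under the scanner error. The other probe gave 369.7 in LIFR KO, 211 in gp130 KO and 233 in wildtype, so both probes put LIFR KO highest and gp130 KO lowest. The late genes of the arm had smaller ratios. Sc5d, the lathosterol desaturase, had 4199.6 in LIFR KO, 3642 in gp130 KO and 4211 in wildtype, the only sterol gene at or below wildtype in both. Ebp, the sterol isomerase, and Dhcr7, the reductase of the last step, had log2 ratios of 0.17 and 0.13 in LIFR KO, both under the scanner error, and of 0.21 and 0.32 in gp130 KO.

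Stard4, which carries cholesterol between membranes, had 2182 in LIFR KO, 1907 in gp130 KO and 1551 in wildtype, log2 ratios of 0.49 and 0.30. Its second probe, outside the raised background, had 316 in LIFR KO, 323 in gp130 KO and 246.5 in wildtype, log2 ratios of 0.36 and 0.39.

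Genes of fatty acid synthesis divided by enzyme. Scd2, a stearoyl-CoA desaturase that makes monounsaturated fatty acids, had 29653 in LIFR KO, 31331 in gp130 KO and 19918 in wildtype, or 1.49-fold and 1.57-fold over wildtype. Scd1, the related desaturase, had 1388 in LIFR KO, 1461 in gp130 KO and 1166 in wildtype, a smaller difference. Elovl6, the elongase of palmitate, had 6499 in LIFR KO, 5579 in gp130 KO and 4384 in wildtype, or 1.48-fold and 1.27-fold over wildtype. Fasn, the fatty acid synthase, had log2 ratios of 0.32 in LIFR KO and 0.23 in gp130 KO.

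The desaturases of polyunsaturated fatty acids differed from wildtype by less than the scanner error. Fads1 had 429 in LIFR KO, 470.2 in gp130 KO and 461 in wildtype, and Fads2 had 221 in LIFR KO, 224 in gp130 KO and 224 in wildtype. Acaca, the acetyl-CoA carboxylase, had 4969 in LIFR KO, 4644 in gp130 KO and 4303 in wildtype with its brightest probe, a log2 ratio of 0.21 in LIFR KO. Its 2 dim probes, at 53.2 and 19.5 in LIFR KO, gave log2 ratios of -0.0044 and -0.29, and Acaca was the member whose probes disagreed most in that comparison. Of 9 genes with several probes well above background, Acaca alone had probes of opposite sign in LIFR KO, and Acaca and Srebf2 did in gp130 KO.

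Between the knockouts, most members differed little. Over LIFR KO, the median log2 ratio of the 31 genes in gp130 KO was -0.082, against 0.051 over all 14766 genes compared, and 13 members lay above 0, against 59.4% of all genes. At least 25% apart and lower in gp130 KO were 4 members, against 9.71% of all genes, a share of 12.9% of the members and so near the background, namely Hsd17b7 at 1.78-fold, Insig1 at 1.73-fold, Insig2 at 1.39-fold and Mvd at 1.26-fold lower. Scd2 and Fdps, also well above wildtype in LIFR KO, had log2 ratios of 0.079 and -0.082 between the knockouts. At 1.5-fold lower there were 2 members, against 4.64% of all genes, and at 2-fold lower none, against 2.05%. Srebf2 was the 1 member at least 25% higher in gp130 KO than in LIFR KO, at 1.49-fold with its brighter probe, where 16.2% of all genes were, and its other probe went the other way. None was 1.5-fold or 2-fold higher, against 5.49% and 1.29% of all genes. The remaining 26 genes differed between the knockouts by less than 25%, which does not show that they were equal.

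Neighbouring genes of lipid metabolism, from lists written with the earlier results of these arrays known, were above wildtype less uniformly than the members, which was not tested. Of 15 genes of fatty acid and glycerolipid metabolism outside the set, 4 were at least 25% higher and 2 lower by that factor in LIFR KO, with a median log2 ratio of 0.052, and 2 were higher and 1 lower in gp130 KO, with a median of 0.12. As shares, 26.7% were higher in LIFR KO, against 13.5% of all genes, and 13.3% in gp130 KO, against 11.9%. Above wildtype were 9 of the 15 in LIFR KO and 10 of the 15 in gp130 KO, against 42.9% and 54.8% of all genes. Lpin1, a phosphatidate phosphatase gene, had 109.6 in LIFR KO, 75.7 in gp130 KO and 47.0 in wildtype, or 2.33-fold and 1.61-fold over wildtype, and its other probe was near background throughout. Acss2, which makes acetyl-CoA from acetate, had 1168 in LIFR KO, 1177 in gp130 KO and 754 in wildtype, or 1.55-fold and 1.56-fold. Its dimmer probe gave 1.22-fold and 1.27-fold. Both genes are known SREBP targets.

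Genes of sterol handling held 2 genes at least 2-fold higher in LIFR KO, Mylip and Abcg1 (16.7% of the 12 compared, against 2.87% of all genes). Mylip, which encodes a ubiquitin ligase that lowers lipoprotein receptors and is known as a target of the oxysterol receptor LXR, had 677 in LIFR KO, 260.2 in gp130 KO and 147 in wildtype. It was 4.60-fold higher in LIFR KO and 1.77-fold in gp130 KO, and its dimmer probe, not well above background in wildtype, was at least 3.22-fold higher in LIFR KO and at least 1.35-fold higher in gp130 KO. Abcg1, a sterol exporter gene and LXR target, had 21.8 in LIFR KO and was not well above background in gp130 KO and wildtype. That is at least 3.13-fold higher in LIFR KO than in wildtype, or 2.07-fold with the lowest single spot as the floor. Abca1, the related exporter gene, was near background on all 3 arrays. Of the 12 genes of this list compared in LIFR KO, 4 were at least 25% higher (33.3%, against 13.5% of all genes) and 2 lower (16.7%, against 20.2%). Of 11 in gp130 KO, 2 were higher (18.2%, against 11.9%) and 1 lower (9.09%, against 10.4%). Above wildtype were 8 of the 12 in LIFR KO and 8 of the 11 in gp130 KO, against 42.9% and 54.8% of all genes. The median log2 ratio of the list was 0.13 in LIFR KO and 0.12 in gp130 KO. Of 7 genes of the isoprenoid branch, none was at least 25% higher in LIFR KO, against 13.5% of all genes, and 2 were lower (28.6%, against 20.2%). In gp130 KO 1 was higher (14.3%, against 11.9% of all genes) and 2 were lower (28.6%, against 10.4%). No isoprenoid gene reached 1.5-fold either way in LIFR KO, against 6.42% of all genes higher and 7.52% lower. None did so in gp130 KO, against 4.59% higher and 3.11% lower.

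The median of the members depended on the processing in LIFR KO and hardly in gp130 KO. Over 12 alternative settings it ran from 0.11 to 0.47 in LIFR KO and from 0.25 to 0.27 in gp130 KO. It exceeded the median of all genes in each of the 12 for both. Changes of filter or floor could not move a member, since every main probe was well above background on every array. The low value came from normexp background correction fitted on all spots, where local background reached 25884 on the LIFR KO array, and the same correction fitted without spots in raised background gave 0.32. With all spots, 19 of 31 members lay above wildtype in LIFR KO, against 50.2% of all genes, and 8 were at least 25% higher, a smaller share than the 38.5% of all genes.

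**Figure D5:**
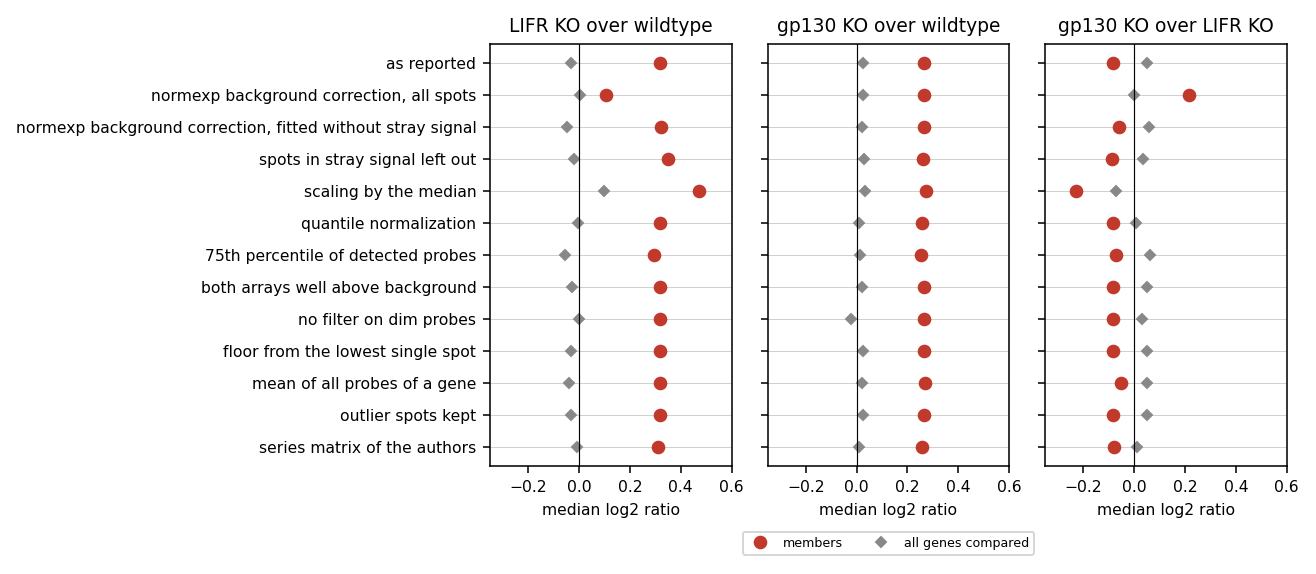
Median log2 ratio (x axis) of the members (red circles) and of all genes compared (grey diamonds) as reported and under 12 alternative settings (rows) for the 3 comparisons. For gp130 KO over wildtype the members stay between 0.25 and 0.27, and for gp130 KO over LIFR KO the sign turns to 0.21 with normexp on all spots.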

How the data were processed

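Total RNA was labelled with Cy3 and hybridised to 1 single-colour Agilent array per genotype, per the labels. Per the file headers, design 026655 was extracted with Feature Extraction 11.0.1.1, protocol GE1_1100_Jul11. Version 9.1 stands in the submitters' processing notes. The deposited intensity is the background-subtracted processed signal, not normalised between arrays, per the file headers. The deposited flags are another kind of value, 0 or 1, for spots well above background, outlying or saturated. The log2 values of the authors' deposited matrix have the same median, 5.38, on each array, and how they were made is not given in the sources used here.

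From 43020 non-control spots, outlier spots (97 to 222 per array) were left out and the log2 signals of a probe's spots averaged, leaving 39384 probes. The array's 75th percentile over spots was subtracted. Printed signals are rescaled to the wildtype percentile, 664, where LIFR KO had 750 and gp130 KO 652. Accessions matched a RefSeq table for 27197 probes (69.1%). A gene was read from its brightest probe and compared when that probe, at least 50% of its spots, was well above background on 1 of the 2 arrays, which 58.3% to 65.5% of probes were. A ratio to an array that was not is a bound against the lowest probe mean well above background there, or the dim probe's own signal where higher. The main probe of all 31 genes was well above background on all 3 arrays, and no spot was saturated. No test was possible with 1 array per group. The number of arrays limits the precision.

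The members and lists were chosen with earlier results of these data known. All members are named, and related genes where they reached 1.5-fold in a knockout. The ratio calculation was tested on simulated data. Python 3.11.15, R 4.3.3 and limma 3.58.1 (normexp, offset 50) were used. The files hold the spot's median, not mean, signal, which normexp used. The planned Insig protein comparison was not made, since protein sequences were not used here.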

Additional observations from a re-analysis of the deposited data

How the results depend on the processing

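No paired analysis was possible because each genotype had 1 array, and no array could be left out for the same reason. The 12 alternatives changed background correction, stray spots, scaling, filter, floor, probe choice, outliers or the source of the values, and a spot in stray signal had a local background over 1.5 times the array's median. Of 370 single-gene values per comparison, 308 moved by less than the half-width of repeated spots for LIFR KO over wildtype, 366 for gp130 KO over wildtype and 309 for gp130 KO over LIFR KO. These counts include settings that could not move a member. Changes of filter or floor leave a probe well above background on every array as it was, and scaling by the median or by detected probes shifts all genes alike.

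With normexp on all spots, LIFR KO over wildtype had a median of 0.11, with 19 members above 0 in place of 27, against 50.2% of all genes. Only 8 members were at least 25% higher there, a smaller share than the 38.5% of all genes, so the excess of members at this limit was lost. Pmvk, Idi1, Sqle and Msmo1 turned to log2 ratios of -0.12, -0.15, -0.11 and -0.13, and among members under the limit Ebp turned to -0.30, Mvk to -0.19, Acaca to -0.19, Hmgcs1 to -0.18, Scap to -0.16 and Fdft1 to -0.065. For gp130 KO over LIFR KO it gave a median of 0.21, with 10 members at least 25% and 1 at least 1.5-fold higher, where 23.9% and 5.88% of all genes were. Fitted without stray spots, normexp kept Pmvk, Idi1, Sqle and Msmo1 above wildtype.

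Scaling by the median moved the median of all genes in LIFR KO over wildtype to 0.098, and with it the members to 0.47, still 0.37 above all genes, where the reported difference is 0.35. It gave 25 members at least 25% and 9 at least 1.5-fold higher and 0 lower, while all genes split into 23.7% higher and 11.7% lower in place of 13.5% and 20.2%. For gp130 KO over LIFR KO it gave a median of -0.23 and 9 members at least 25% lower, with all genes at 8.93% higher and 16.6% lower.

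The single member at least 25% lower in LIFR KO, Srebf2, also dropped to 0 members with normexp without stray spots and with the mean of all probes. That mean also left 0 members at least 25% higher in gp130 KO over LIFR KO. In gp130 KO over wildtype 1 member, in place of 2, reached 1.5-fold with either normexp, with quantile normalization and with the authors' matrix. The cause of these moves was not tested.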

Other observations

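Insig1 kept its direction under every one of the 12 alternatives, though those of filter and floor could not move it. Its log2 ratios were 1.16 to 1.66 in LIFR KO over wildtype, 0.57 to 0.73 in gp130 KO over wildtype and -0.93 to -0.59 in gp130 KO over LIFR KO. Hsd17b7 lay between 0.57 and 0.84 in LIFR KO over wildtype and between -0.16 and -0.10 in gp130 KO over wildtype. Srebf2 ran from -0.48 to -0.13 in LIFR KO over wildtype and from -0.20 to 0.12 in gp130 KO over wildtype, where its sign depended on how its 2 probes were joined.

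Markers of cells that make much lipid were scarce. Of 4 hepatocyte markers, Afp alone was well above background, at 407 in LIFR KO, 433 in gp130 KO and 425 in wildtype, while Alb, Apoa1 and Ttr were near background on all 3. Of 4 adipocyte markers, Adipoq and Plin1 were near background on all 3 arrays, and Lpl had 16.5 in gp130 KO and 15.5 in wildtype and was not well above background in LIFR KO. Cidec was well above background in wildtype alone, at 15.6, which is at least 1.59-fold lower in gp130 KO. Among 6 fibroblast markers, Col1a1 had 228 in LIFR KO, 94.7 in gp130 KO and 70.4 in wildtype, whereas Col1a2 had log2 ratios of -0.053 in LIFR KO and 0.31 in gp130 KO and Pdgfrb was near background on all 3. Vim had 77758 in LIFR KO, 85091 in gp130 KO and 73043 in wildtype. Col3a1 and Thy1 had log2 ratios of 0.63 and 0.24 in gp130 KO and were not well above background in LIFR KO, where Thy1 was at least 1.38-fold lower. All 5 fibroblast markers compared were thus higher in gp130 KO, with a median of 0.31, where the lipid genes had 0.26. Col1a2, Col3a1 and Thy1 were dim, however, at 28.3, 21.4 and 24.1 in gp130 KO. Their scanner errors over wildtype were 0.29, 0.34 and 0.29, so Thy1 lay under its error and Col1a2 was barely above it. Their part in the shift of the lipid genes was not tested.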
